A study of Sus scrofa with 20 samples.

Results

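Growth arrest and early response genes are the genes through which a cell first answers stress, damage or a growth signal. The genes CDKN1A, BTG3, MYC, FOS, JUN and ATF3 were looked up among the reference IDs counted in testis and liver of pigs. CDKN1A and BTG3 were taken because they stood in the study's list of genes that differed between high and low androstenone liver. MYC, FOS, JUN and ATF3 were added as the classical early response genes, with earlier results of these data known. Of the 6 genes looked for, 5 were found, under 6 of the 21755 reference IDs, and ATF3 was not analysed here because no ID could be named ATF3. BTG3 had 2 IDs (XM_003132741.1 and NM_001097517.1), and CDKN1A (XM_001929558.1), MYC (NM_001005154.1), FOS (NM_001123113.1) and JUN (NM_213880.1) had 1 each.

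The study sequenced RNA from the testis and the liver of 10 boars with either a high or a low level of androstenone, a steroid made in the testis that causes boar taint when it is stored in fat. The boars came from a cross of Duroc with F2 animals, whose F1 parents (Leicoma × German Landrace) had been mated with Large White. They were on average 116 days old at slaughter, and the age of each boar is not given. The 4 groups were testis low, testis high, liver low and liver high androstenone, each with 5 libraries, and the labels name no treatment. The groups were chosen from the extremes of fat androstenone, so they differ in whatever else goes with that level. The labels give a replicate number but do not say whether testis and liver libraries with the same number came from the same boar. All libraries were made from SMART-amplified full-length cDNA and sequenced on 1 flow-cell.

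CDKN1A encodes p21, an inhibitor that binds cyclin-dependent kinases and holds the cell cycle, and it is a classical target of the p53 protein. BTG3 belongs to the BTG and TOB family of antiproliferative proteins, which bind the deadenylases that shorten mRNA tails. FOS and JUN are the subunits of the AP-1 transcription factor, and MYC is a transcription factor of cell growth. All 3 are transcribed within minutes of a stimulus and their mRNAs are short lived. In liver this early response is best known from regeneration after loss of tissue, and it also follows oxidative, inflammatory and unfolded protein stress.

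The summed counts lay between 6161397 and 15975386 per testis library and between 5796973 and 26783002 per liver library, and high replicate 3 of liver was the deepest. A count of 3 corresponded to between 0.112 and 0.518 CPM (counts per 1000000 counts of a library) over the 20 libraries. The 10 most abundant IDs took between 8.10% and 18.2% of the counts in testis and between 24.8% and 40.6% in liver. The values below are CPM after TMM scaling over all 20 libraries, and they were compared within an ID only, since the IDs differ in length. The tissue labels held against the markers. ALB, the main plasma protein made by hepatocytes, had 125242 ± 49081 CPM (SD, n = 10) in liver and 7.36 ± 9.04 CPM in testis. INSL3, a Leydig cell hormone, had 1580 ± 829 CPM in testis and 0.557 ± 1.29 CPM in liver, and TNP1, a protein of the spermatid nucleus, 810.1 ± 367 against 0.575 ± 1.08 CPM.

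In testis, the growth arrest genes varied little between boars. CDKN1A was measured at 11.9, 18.8, 13.0, 14.9 and 11.6 CPM in low replicates 1 to 5 and at 8.89, 14.0, 20.1, 10.2 and 9.79 CPM in high replicates 1 to 5. The highest testis was 2.26 times the lowest, and the groups overlapped. In liver, CDKN1A was measured at 15.0, 12.6, 19.6, 14.9 and 54.2 CPM in low replicates 1 to 5 and at 27.9, 48.5, 272, 11.0 and 15.6 CPM in high replicates 1 to 5. High replicate 3 stood far above the other livers, low replicate 5 and high replicate 2 came next, and 6 of the other 7 livers lay within the range of testis. The highest liver was 24.8 times the lowest.

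The first BTG3 ID (XM_003132741.1) was measured at 18.4, 35.3, 16.9, 20.3 and 15.6 CPM in low and at 16.7, 21.6, 19.9, 15.0 and 21.8 CPM in high androstenone testis. Only low replicate 2 stood apart. In liver it was measured at 42.5, 25.0, 33.7, 27.4 and 109.7 CPM in low and at 85.7, 121, 691, 76.5 and 56.5 CPM in high replicates 1 to 5. All high livers were above 4 of the 5 low livers, and low replicate 5 was above 3 of the 5 high livers. The second BTG3 ID (NM_001097517.1) was measured at 25.0, 46.4, 20.8, 28.5 and 20.1 CPM in low and at 22.2, 29.9, 27.7, 18.3 and 23.6 CPM in high androstenone testis. Its liver values were 78.9, 53.8, 46.4, 35.4 and 145 CPM in low and 110.3, 168, 693, 109.8 and 67.1 CPM in high androstenone boars. The same 2 libraries, high replicate 3 and low replicate 5, were the highest of their liver groups at both BTG3 IDs.

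FOS was measured at 1.26, 6.08, 3.72, 3.28 and 5.00 CPM in low and at 3.30, 6.81, 15.6, 4.40 and 4.42 CPM in high androstenone testis. In liver it was measured at 2.66, 2.99, 12.2, 5.30 and 52.5 CPM in low and at 12.2, 7.29, 31.1, 4.25 and 5.32 CPM in high replicates 1 to 5. The 2 highest livers for FOS were thus again low replicate 5 and high replicate 3, but in the other order than for CDKN1A and BTG3. The other 8 livers lay within the range of testis.

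JUN, the partner of FOS, followed another order of livers. It was measured at 159, 39.6, 21.2, 27.2 and 33.2 CPM in low and at 92.3, 23.3, 37.7, 200.0 and 109 CPM in high replicates 1 to 5. High replicate 4 and low replicate 1 were the highest, and high replicate 3 with 37.7 CPM lay close to the median liver of 38.7 CPM. In testis JUN was between 1.85 and 6.33 CPM in low and between 1.90 and 4.95 CPM in high androstenone boars.

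MYC was measured at 17.1, 16.0, 7.47, 6.24 and 15.2 CPM in low and at 14.0, 11.2, 22.1, 12.5 and 10.8 CPM in high replicates 1 to 5 of liver. High replicate 3 was the highest here too, but only 1.67 times the median liver. By library totals alone, without TMM scaling, MYC was highest in low replicate 1, with 11.6 CPM against 11.4 CPM in high replicate 3. In testis MYC lay between 0.620 and 1.28 CPM in low and between 0.238 and 1.53 CPM in high androstenone boars. These testis values rested on 2 to 22 counts per library, so a change between testis groups would have been seen only if it was large.

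**Figure D1:**
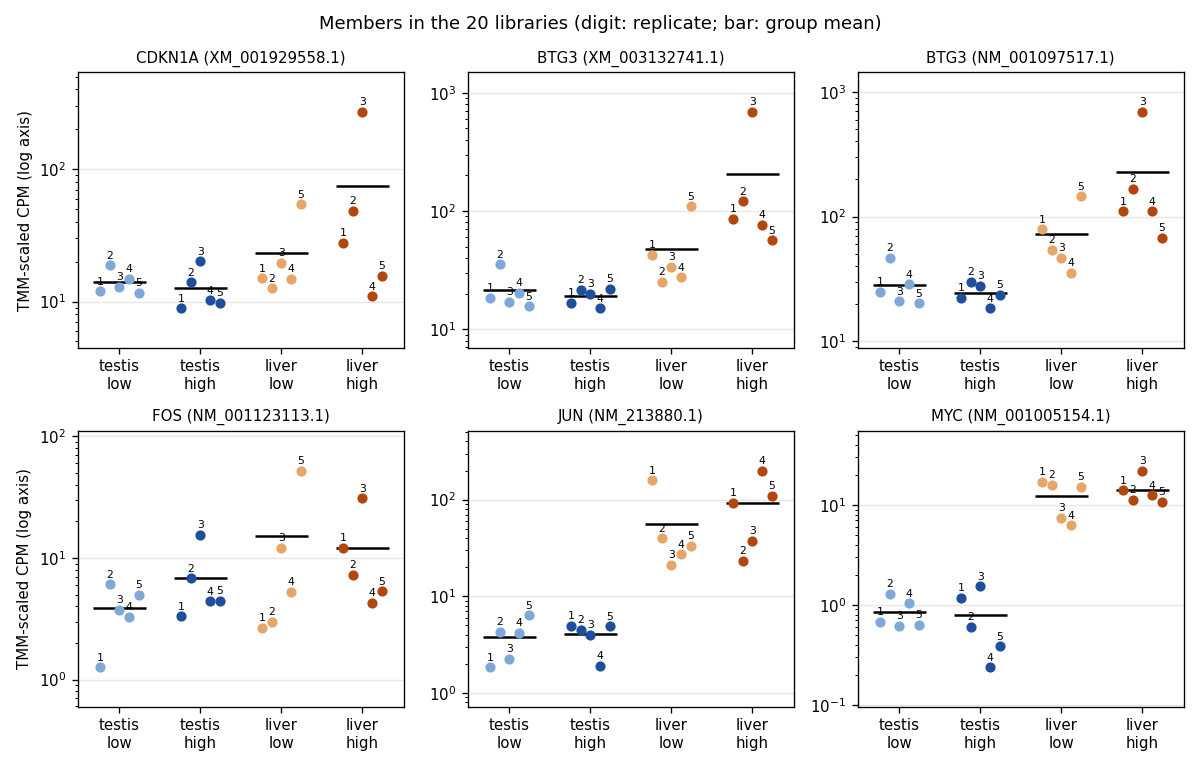
TMM-scaled CPM on a log axis of each ID in the 4 groups, with 1 point per library, the replicate number above it and a bar at the group mean. High replicate 3 is the highest liver for CDKN1A (272 CPM), both BTG3 IDs (691 and 693 CPM) and MYC (22.1 CPM), low replicate 5 for FOS (52.5 CPM) and high replicate 4 for JUN (200.0 CPM).

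The comparison of tissues asked where these genes were more abundant. JUN and MYC separated the tissues in every library, while CDKN1A and FOS overlapped widely. An ID was called when edgeR's quasi-likelihood test passed a threshold of 0.05 for the Benjamini-Hochberg adjusted p and its change was 1.5-fold or more. All 6 IDs were called, and all 6 were lower in testis. This reads against a background in which 75.7% of the 19065 IDs tested were called, 43.5% of the IDs as higher and 32.2% as lower in testis. In bulk tissue, fewer cells of a type and less RNA per cell cannot be told apart. The two-sided permutation tests below compared log2(CPM + 0.5) of 10 testis with 10 liver libraries, and the smallest p that 100000 resamples can give is 2e-05.

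JUN was measured at 3.92 ± 1.47 CPM in testis and 74.3 ± 63.5 CPM in liver (n = 10 each). Its log2 fold change, testis over liver, was -4.19 (SE 0.42, adjusted p by edgeR = 1.25e-09, permutation p = 6e-05). MYC was measured at 0.818 ± 0.416 CPM in testis and 13.3 ± 4.70 CPM in liver, and its log2 fold change was -4.01 (SE 0.29, adjusted p by edgeR = 2.80e-12, permutation p = 6e-05). For these 2 genes every testis was below every liver, which held for 15.3% of the IDs tested. Groups that did not overlap in either direction made up 42.8%. Of the IDs tested, 4.78% had a lower log2 fold change than JUN and 5.18% a lower one than MYC. Leaving out any 1 library kept JUN between -4.34 and -3.75 and MYC between -4.16 and -3.90.

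BTG3 was also lower in testis, with 20.1 ± 5.85 against 127 ± 201 CPM at its first ID and 26.2 ± 8.05 against 151 ± 195 CPM at its second. The log2 fold changes were -2.30 (SE 0.39, adjusted p by edgeR = 7.18e-06, permutation p = 8e-05) and -2.30 (SE 0.35, adjusted p by edgeR = 1.74e-06, permutation p = 6e-05). At both IDs 9 of the 10 testes were below all livers, and low replicate 2 of testis overlapped with the lower livers. Without high replicate 3 of liver the values became -1.66 and -1.79. CDKN1A was measured at 13.3 ± 3.73 CPM in testis and 49.1 ± 79.6 CPM in liver, and its log2 fold change was -1.66 (SE 0.43, adjusted p by edgeR = 0.00112, permutation p = 0.0156). Without high replicate 3 of liver it was -0.88. Because CDKN1A and BTG3 were chosen for high values in high androstenone liver, their tissue difference is not independent of that choice. Among low androstenone boars alone the log2 fold change was -0.73 for CDKN1A (SE 0.36, adjusted p by edgeR = 0.0783), which was not called, and -1.17 and -1.36 for the BTG3 IDs (adjusted p by edgeR = 0.0115 and 0.00283), which were.

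FOS was measured at 5.39 ± 3.91 CPM in testis and 13.6 ± 16.0 CPM in liver, with a log2 fold change of -1.40 (SE 0.48, adjusted p by edgeR = 0.0101). The permutation test did not pass (permutation p = 0.107). The call of FOS rested on low replicate 5 of liver, and without that library the log2 fold change was -0.70 (SE 0.39, adjusted p by edgeR = 0.103). Only 1 of the 10 testes was below all livers for FOS.

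The scaling between tissues moved all of these values. With library totals only, in place of TMM, the median log2 fold change of all IDs was 1.28 instead of 0.31, and 76.0% of the called IDs were higher in testis instead of 57.4%. JUN (-3.26), MYC (-2.99) and the BTG3 IDs (-1.14 and -1.16) were still called lower in testis. CDKN1A (-0.48, adjusted p by edgeR = 0.213) and FOS (-0.28, adjusted p by edgeR = 0.558) were not. With upper quartile scaling the median was -0.04, 50.0% of the calls were higher in testis, and all 6 IDs were called lower in testis.

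**Figure D2:**
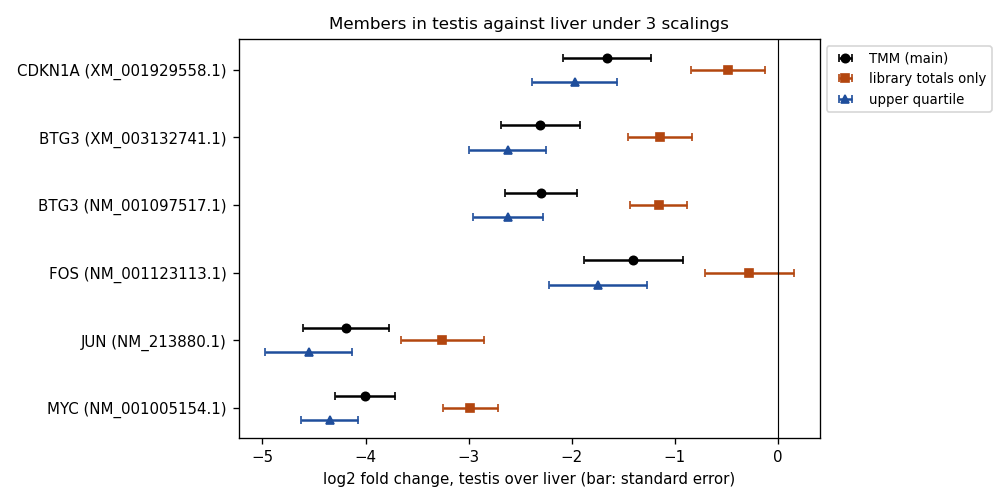
Log2 fold change, testis over liver, of each ID with its standard error under TMM scaling, library totals only and upper quartile scaling, with a line at no difference. With library totals only, which gives the smallest differences, JUN (-3.26) and MYC (-2.99) stay far from 0, while FOS with library totals only (-0.28) has an error bar that crosses 0.

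The order of the group means was liver high, liver low, testis low and testis high for CDKN1A and both BTG3 IDs. It was liver high, liver low, testis low and testis high for MYC too, liver high, liver low, testis high and testis low for JUN, and liver low, liver high, testis high and testis low for FOS. The 2 groups of a tissue overlapped for every ID, so their order within a tissue was not separated by these libraries. Groups that did not overlap made up 1.86% of the IDs tested in testis and 0.542% in liver. The next neighbours, low androstenone liver and low androstenone testis, overlapped for CDKN1A and both BTG3 IDs. For FOS the neighbours were high androstenone liver (4.25 to 31.1 CPM) and high androstenone testis (3.30 to 15.6 CPM), which overlapped too.

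In testis, high and low androstenone boars were compared to ask whether the same genes differ with androstenone in the organ that makes it. None of the 6 IDs was called, and none had an unadjusted p under 0.05. By edgeR 0 of the 18340 IDs tested in testis (0.0%) were called, while 1741 (9.49%) had an unadjusted p under 0.05 and DESeq2 called 119. FOS had the largest difference of the 6, with 6.90 ± 5.03 CPM in high and 3.87 ± 1.83 CPM in low androstenone testis (n = 5 each). Its log2 fold change was 0.81 (SE 0.42, 95% interval -0.01 to 1.63, adjusted p by edgeR = 0.557, exact permutation p = 0.254). High replicate 3 of testis, with 15.6 CPM, carried much of it, and the value was 0.29 without that library. The exact two-sided permutation test of 5 against 5 cannot give a p below 0.00794.

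The other testis differences were smaller than their errors. CDKN1A was measured at 12.6 ± 4.62 CPM in high and 14.0 ± 2.93 CPM in low androstenone testis, with a log2 fold change of -0.18 (95% interval -0.63 to 0.27, adjusted p by edgeR = 0.824, exact permutation p = 0.437). The BTG3 IDs had log2 fold changes of -0.18 (95% interval -0.61 to 0.25, adjusted p by edgeR = 0.811) and -0.23 (95% interval -0.68 to 0.22, adjusted p by edgeR = 0.769). JUN had 0.09 (95% interval -0.55 to 0.73) and MYC -0.08 (95% interval -0.93 to 0.78), with adjusted p by edgeR of 0.948 and 0.970. These intervals leave room for a change in either direction at each ID, and are widest for FOS and MYC.

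In liver, the values of high and low androstenone boars are given as a description without a test, since CDKN1A and BTG3 were chosen from this contrast. For BTG3 the paper also reported quantitative PCR in the same livers and in those of further high and low androstenone boars, with a similar pattern. Over all IDs, edgeR called 0 of 15855 (0.0%), with 465 (2.93%) at an unadjusted p under 0.05, and DESeq2 called 7. CDKN1A had 74.9 ± 111 CPM in high and 23.3 ± 17.5 CPM in low androstenone liver (n = 5 each). High replicate 3 held 72.5% of the CDKN1A sum of its group. The log2 fold change, high over low, was 1.70 with all livers, 0.21 without high replicate 3 and 2.28 without low replicate 5. At the BTG3 IDs, high replicate 3 held 67.0% and 60.4% of the sum of its group. Without both high replicate 3 and low replicate 5, the log2 fold change was 0.79 for CDKN1A and 1.47 and 1.17 for the BTG3 IDs.

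Among the early response genes, JUN was highest in high replicate 4, FOS in low replicate 5 and MYC, with TMM scaling only, in high replicate 3. JUN had 92.6 ± 70.1 CPM in high and 56.0 ± 57.8 CPM in low androstenone liver. Its log2 fold change was 0.86 with all livers, 0.34 without high replicate 4 and 1.69 without low replicate 1. MYC had 14.1 ± 4.63 CPM in high and 12.4 ± 5.13 CPM in low androstenone liver, and its log2 fold change of 0.27 became 0.07 without high replicate 3. FOS had 12.0 ± 11.1 CPM in high and 15.1 ± 21.2 CPM in low androstenone liver, and a log2 fold change of -0.30. Low replicate 5 held 69.4% of the FOS sum of the low group, and the FOS value turned to 1.10 without it and went to -0.99 without high replicate 3.

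**Figure D3:**
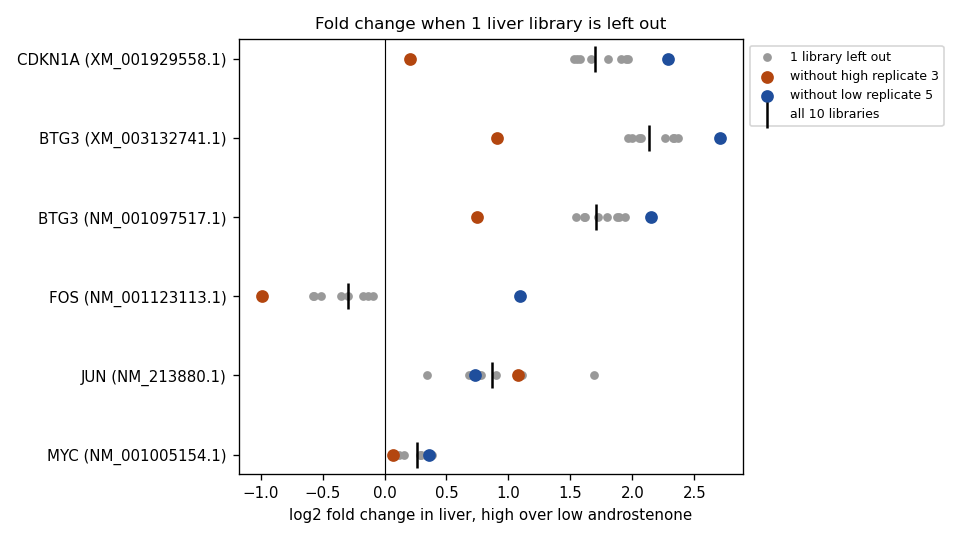
Log2 fold change in liver, high over low androstenone, of each ID with all 10 libraries (black line) and with 1 library left out (points). For CDKN1A, high replicate 3 (orange) moves the value from 1.70 to 0.21, and for FOS low replicate 5 (blue) turns it from -0.30 to 1.10.

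The livers were then compared one by one, to see which of them carried the response. For each ID with a mean of at least 1 CPM in liver, the deviation of a library from the median liver was taken on the log2 scale. In high replicate 3 the deviation was 3.92 for CDKN1A and 2.89 and 3.38 for the BTG3 IDs. These IDs were chosen from the liver comparison that includes this library, so their deviations there are a description of that choice. The early response genes were more uneven, at 2.23 for FOS, 0.72 for MYC and -0.04 for JUN in high replicate 3. In low replicate 5 FOS deviated by 2.98, MYC by 0.19 and JUN by -0.22. Over all 12217 IDs the median deviation in high replicate 3 was 0.06, but this library was also the highest liver for 23.7% of these IDs, the largest share of any liver. It was over 1 log2 unit above the median liver for 13.0% of all IDs, against 1.28% to 6.65% in the other livers. TMM scaling raised the values of this library more than those of any other (factor 0.515). The shares above and the CPM of the lists and markers below are after that scaling. Some ranks rest on it, with cases named below. CDKN1A and BTG3 were highest in this library without TMM scaling too, while MYC was not. By library totals alone CDKN1A had 139.8 CPM in high replicate 3 and between 8.14 and 34.5 CPM in the other livers, and the first BTG3 ID 355 against 16.1 to 85.9 CPM.

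Lists of related genes gave the surroundings of these values, though many listed genes had no named ID. Found were 14 of 30 immediate early, 15 of 25 p53, 6 of 10 BTG and TOB and 6 of 14 cyclin and kinase genes. The others were 5 of 13 MYC network, 9 of 15 integrated stress response and 5 of 13 proliferation genes. The AP-1 and other immediate early list held 8 IDs at this level, none of them an AP-1 subunit. Its median deviation was 1.03 in high replicate 3 and between -0.78 and 0.42 in the other livers. After TMM scaling, 5 of the 8 were highest in high replicate 3. ZFP36, which binds AU-rich mRNAs and speeds their decay, had 74.1 CPM in high replicate 3 and between 5.49 and 29.8 CPM in the other livers. IER3 had 6.82 against 0.439 to 2.03 CPM, KLF10 70.2 against 15.8 to 34.3 CPM and EGR1 38.5 against 14.0 to 34.9 CPM. The matricellular gene CYR61, by contrast, had 2.54 CPM in high replicate 3 and up to 13.5 CPM elsewhere. Of this list, IER2 was the fifth that was highest in high replicate 3, with 21.8 CPM. By library totals alone EGR1 was highest in high replicate 4 and IER2 in high replicate 5, while ZFP36, IER3 and KLF10 kept their rank.

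BTG2, the p53-responsive relative of BTG3, was the clearest member of the BTG and TOB list. It had 479 CPM in high replicate 3 and between 42.2 and 127 CPM in the other livers. The rest of that list did not follow, and its median deviation in high replicate 3 was 0.40, as in low replicates 1 (0.44) and 5 (0.41). Among the integrated stress response and unfolded protein genes (9 IDs, median deviation 0.80 in high replicate 3), 5 were highest in that library after TMM scaling. By library totals alone only HSPA5 stayed highest there, and XBP1 did not. ASNS was among the 5 by a hair only, with 5.22 CPM there and 5.21 CPM in low replicate 5. The endoplasmic reticulum chaperone HSPA5 had 1443 CPM there against 157 to 535 CPM in the other livers, and XBP1, a transcription factor of the unfolded protein response, 675 against 215 to 430.4 CPM. DDIT3, which encodes the stress factor CHOP, had 10.2 CPM there and between 5.42 and 16.6 CPM elsewhere. ATF4, the central factor of the integrated stress response, had 288 CPM there and between 182 and 353 CPM elsewhere.

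The p53 targets and growth arrest genes as a whole did not stand out in high replicate 3, with a median deviation of -0.02 over 13 IDs, of which 3 were highest there. These were CCNG1, a cyclin induced by p53, with 211 CPM against 13.9 to 126 CPM, PLK3 with 20.3 against 1.59 to 9.65 CPM, and AEN with 36.8 against 12.5 to 24.2 CPM. By library totals alone AEN was not highest there. MDM2, the p53 antagonist and target, had 3.92 CPM there and between 2.01 and 6.57 CPM elsewhere. The cyclins and cyclin-dependent kinases that p21 binds had a median deviation of 0.39 over 6 IDs, the MYC network 0.66 over 6 IDs and the proliferation genes 0.13 over 4 IDs. The proliferation genes were highest in low replicate 2, with a median deviation of 1.10 and 63.5 CPM of TOP2A, the topoisomerase of dividing cells, against a mean of 16.0 ± 4.44 CPM in high androstenone liver.

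**Figure D4:**
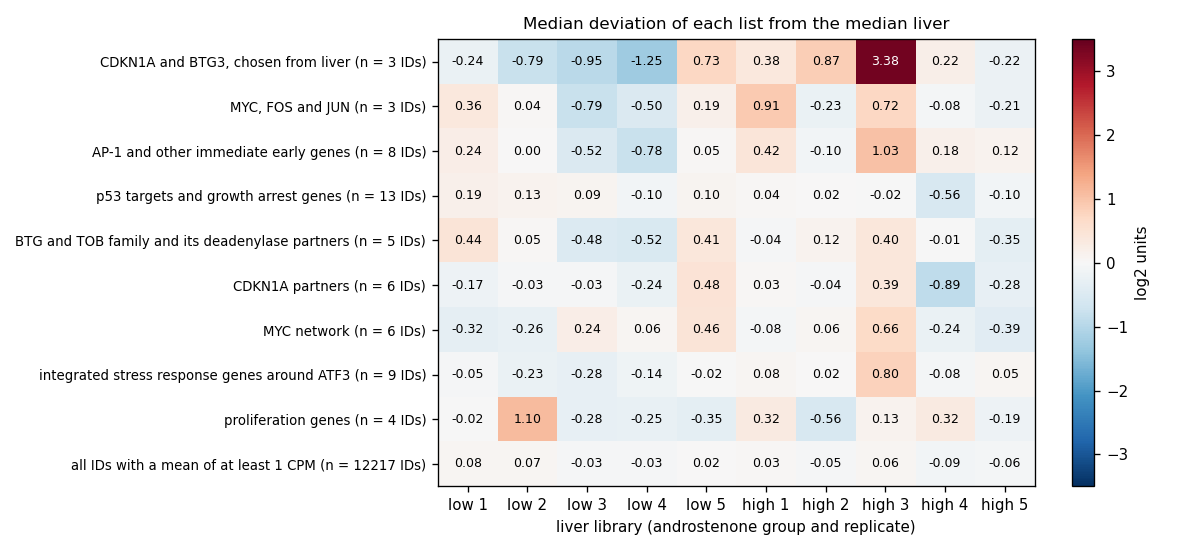
Median log2 deviation from the median liver of the CDKN1A and BTG3 IDs (chosen from the liver comparison), of the MYC, FOS and JUN IDs, of 7 lists of related genes and of all 12217 IDs with a mean of at least 1 CPM, for each of the 10 livers. The top row is high in high replicate 3 (3.38), where the immediate early genes (1.03) and the integrated stress response genes (0.80) have their largest values. The MYC, FOS and JUN median is 0.72 there and 0.91 in high replicate 1, while the p53 list (-0.02) and all IDs (0.06) lie near 0. All values are after TMM scaling.

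Markers of other cell types were read beside these values. The leukocyte and macrophage markers (6 of 8 genes found, sum of 562 CPM) in high replicate 3 lay within the range of the other livers, at 447 to 792 CPM, and the stellate cell and fibroblast markers (2 of 7 genes found) at 391 CPM lay within 149 to 412 CPM. The sum hides a difference between these 2 genes. ACTA2, the smooth muscle actin of activated stellate cells, was highest in high replicate 3, with 233 CPM against 8.95 to 156 CPM in the other livers, while DCN, the matrix proteoglycan decorin, had 157 CPM there and 119 to 403 CPM elsewhere. By library totals alone ACTA2 was highest in high replicate 1. The median deviation of the stellate cell and fibroblast list was 0.74 in high replicate 3 and 0.72 in low replicate 5. The bile duct markers (4 of 5 genes found) summed to 14.1 CPM there and to between 8.54 and 25.0 CPM elsewhere. The acute phase markers (5 of 7 genes found) summed to 118025 CPM in high replicate 3, above the 25420 to 72447 CPM of the other livers. Only 2 of the 5 were highest there, HP, the plasma protein haptoglobin (102424 CPM), and ITIH4 (14887 CPM). By library totals alone the sum and HP were highest in low replicate 4, while ITIH4 kept its rank. CRP had 523 CPM in high replicate 3 and 997 CPM in low replicate 1. SAA3 had 190 against 278 CPM in low replicate 4, and HAMP 1.02 against 119 CPM in high replicate 4. In low replicate 5 the sum of the hepatocyte markers was highest, at 249026 CPM against 85558 to 185759 CPM. ALB made up 226631 CPM of it, and only 2 of the 5 markers were highest there. APOA1 had 966 CPM there and 2688 CPM in low replicate 2, and APOA2 1381 against 3568 CPM. TF had 4290 CPM there and 4708 CPM in high replicate 3. In high replicate 4, where JUN was highest, the 10 most abundant IDs took 40.6% of the counts, the largest share of any library. The paper gives mapped and total reads per liver, taken here in the order of its samples. By these counts the share of mapped reads was largest in high replicate 3, low replicate 5 and high replicate 2. Those were also the highest livers for CDKN1A and BTG3. The share was smallest in high replicate 4, and MYC did not follow this order. The part of these differences, of mapped reads and of depth in the values of CDKN1A, BTG3, FOS, JUN and MYC was not tested.

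The lists were also compared between tissues, in the fit over all IDs, where 75.7% of IDs were called. Of 13 IDs of the immediate early list tested, 4 were higher and 6 lower in testis. KLF4, a transcription factor of differentiating cells, was higher in testis (log2 fold change 4.41, adjusted p by edgeR = 7.71e-14), as was the orphan receptor NR4A2 (1.86). CYR61 (-4.95) and EGR1 (-4.40) were lower. Of 14 p53 and growth arrest IDs, 2 were higher and 6 lower in testis. These included PMAIP1, which encodes the pro-apoptotic NOXA (3.37), and the kinase inhibitor CDKN2C (1.10) among the higher, and PLK3 (-3.65) and the DNA repair gene XPC (-2.90) among the lower.

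Of 6 BTG and TOB IDs, 3 were higher and 1 was lower in testis. BTG4 (4.21) was higher but was measured at only 0.364 ± 0.177 CPM in testis, and CNOT8 (1.91), a subunit of the deadenylase complex, was higher with 63.8 ± 12.6 against 16.9 ± 8.22 CPM. BTG2 was lower in testis with a log2 fold change of -6.02 (adjusted p by edgeR = 1.26e-13). Of 6 cyclins and cyclin-dependent kinases, 4 were higher, among them CDK1 (3.49) and CDK2 (1.80), and CDK4 (-1.08) was lower. All 5 proliferation IDs were higher in testis, with the largest values for the mitotic genes CCNB2 (6.22) and CDC20 (5.41).

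The MYC network had 2 IDs higher and 4 lower of 7. MYCN (2.11), the relative of MYC, and its antagonist MXI1 (2.04) were higher in testis, while MYCL (-5.27) was lower, as were all 3 IDs of MLX, a binding partner in the wider network (-1.76 at XM_003131385.1). Of 9 integrated stress response IDs, 3 were higher and 4 lower. The amino acid synthesis gene ASNS (3.45) and DDIT3 (2.29) were higher, and XBP1 (-2.69) and ATF4 (-1.76) lower in testis. The leukocyte and macrophage markers differed between tissues as well, with sums of 10.8 to 33.1 CPM in testis and 447 to 792 CPM in liver. Their part in the tissue differences of JUN, MYC and the other genes was not tested.

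Between high and low androstenone testis no ID of the 7 lists was called, against 0.0% of all IDs. An unadjusted p under 0.05 was reached by 1 of 12 immediate early IDs, 1 of 14 p53 IDs, 1 of 6 cyclin and kinase IDs, 1 of 9 integrated stress response IDs and 0 IDs of the other 3 lists. The median log2 fold changes of the lists lay between -0.31 for the cyclins and kinases and 0.24 for the BTG and TOB genes, and that of all IDs was -0.02. The 2 most abundant IDs of each list had log2 fold changes, high over low, of -0.05 for CTGF and 0.37 for KLF4, 0.03 for CCNG1 and 0.13 for PMAIP1, and 0.29 for CNOT8 and 0.29 for TOB1. They were -0.30 for CDK4 and -0.02 for CDK1, 0.08 for LDHA and 0.24 for MXI1, -0.05 for HSPA5 and 0.16 for DNAJB9, and -0.05 for TOP2A and -0.15 for CDC20. KLF4 had 14.5 ± 4.82 CPM in high and 10.9 ± 2.58 CPM in low androstenone testis (adjusted p by edgeR = 0.617).

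In liver, no ID of the 7 lists was called, against 0.0% of all IDs. The log2 fold change, high over low, was above 0 for 9 of 12 immediate early IDs (median 0.48) and for 8 of 9 integrated stress response IDs (median 0.37), while the median of all IDs was 0.01. It was above 0 for 7 of 14 p53 IDs (median 0.00). The 2 most abundant IDs of these lists had 0.47 for KLF10 and 0.60 for EGR1, 0.30 for HSPA5 and 0.74 for XBP1, and 0.52 for CCNG1 and -0.33 for PLK2. BTG2 had 173 ± 172 CPM in high and 73.9 ± 35.3 CPM in low androstenone liver, a log2 fold change of 1.28, and TOB1 -0.23. The others were -0.14 for CDK4 and -0.58 for CCND2, 0.43 for LDHA and -0.12 for MLX (XM_003131386.1), and -0.34 for TOP2A and -0.03 for CDC20. For KLF10, EGR1, HSPA5, XBP1, CCNG1, BTG2 and LDHA the highest liver after TMM scaling was high replicate 3. The same held for CDK4 and MLX (XM_003131386.1), whose log2 fold changes were below 0. By library totals alone EGR1, XBP1, CDK4 and MLX were highest in other livers.

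The counts of BTG3 were split between 2 reference IDs, which may share reads, since a read that matches both sequences can be placed on either. The XM_003132741.1 ID took 43.5% ± 1.97 (SD, n = 10) of the BTG3 counts in testis and 41.8% ± 5.14 in liver. The difference of 1.77 percentage points between the tissues was within the spread (two-sided permutation p = 0.337), and high and low androstenone testes differed by 0.773 points (exact two-sided permutation p = 0.619). In testis the share lay between 41.6% and 48.0%. In liver it was 35.0% (95% Wilson interval 32.3 to 37.8) in low replicate 1 and 31.8% (29.0 to 34.6) in low replicate 2, and between 41.1% and 49.9% in the other livers. High replicate 3 had the highest share, 49.9% (49.2 to 50.6) of 19074 counts. These intervals cover counting error only, since reads of an amplified library are not independent molecules. Both IDs moved together over the livers (Pearson r = 0.982, and 0.948 without high replicate 3, n = 10 libraries).

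**Figure D5:**
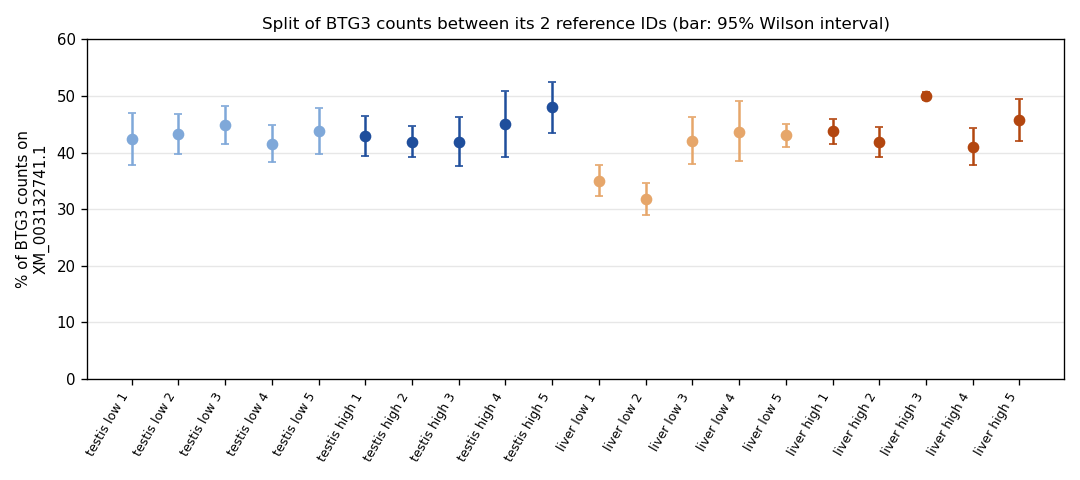
Share of the BTG3 counts that lay on XM_003132741.1, in %, in each of the 20 libraries with its 95% Wilson interval, on an axis that starts at 0. Low replicates 1 and 2 of liver (35.0% and 31.8%) lie below all other libraries, and high replicate 3 of liver (49.9%) is the highest.

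Finally, the genes with the pattern most like each member were taken within each tissue, by Pearson r of log2(CPM + 0.5) over 10 libraries. They are a description, since all values share the libraries and their depth. Among 3113 named IDs in liver with a mean of at least 5 CPM, CDKN1A was most like HNRNPF (r = 0.956, and 0.912 without high replicate 3), TSPAN14 (0.953 and 0.853) and HAL (0.953 and 0.837), which encodes the histidine-degrading enzyme of liver. The first BTG3 ID was most like HAL (0.960 and 0.876), ZFP36 (0.935 and 0.872) and XBP1 (0.916 and 0.798). The second was most like PLEK2 (0.941 and 0.841), BTG2 (0.918 and 0.751) and HAL (0.914 and 0.726).

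MYC in liver was most like ZC3H15 (0.889), the growth factor gene HGF (0.882) and the amino acid transporter gene SLC38A2 (0.872). The genes like FOS included SULT2A1 (0.953, and 0.934 without low replicate 5), a sulfotransferase of hydroxysteroids, and TBC1D7 (0.918). JUN was most like TEN1 (0.962, and 0.946 without high replicate 4), TMEM55B (0.915) and the apolipoprotein gene APOE (0.902). No gene was named for more than 1 of CDKN1A, MYC, FOS and JUN, which says little with only 3 genes kept for each. HAL was named for CDKN1A and for both BTG3 IDs. HAL stood in the same list of the study from which CDKN1A and BTG3 were taken, so this likeness is not independent of that choice. Among the members, CDKN1A and FOS had r = 0.775 over the livers (0.782 without high replicate 3), and JUN had r = -0.397 with CDKN1A and -0.435 with FOS.

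In testis, among 3226 named IDs, CDKN1A was most like PLAT (0.915), the gene of tissue plasminogen activator, KCTD20 (0.906) and HADHA (0.903). The first BTG3 ID was most like EIF4EBP2 (0.944), a repressor of translation, MTA2 (0.930) and ARL6IP6 (0.928), and the second most like MTA2 (0.926), ELOC (0.914) and MAP1B (0.912). MYC was most like CYCS (0.880), the gene of cytochrome c, TMA16 (0.839) and RGS2 (0.830), FOS most like SDHC (0.870), CYB5A (0.860) and SLC39A1 (0.854), and JUN most like KMT2B (0.915), HMGN4 (0.868) and PPP3CA (0.864). None of the genes named for a member in testis was named for it in liver. Only 3 of 3226 named IDs were kept per member, so this says little about a difference between tissues. CDKN1A and FOS, with r = 0.775 in liver, had r = 0.584 in testis, and 0.290 there without high replicate 3.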

How the data were processed

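RNA of testis and liver from 5 high and 5 low androstenone boars gave 20 libraries, each sequenced in 1 lane. The authors processed reads with CASAVA 1.7, aligned them with BWA to RefSeq mRNA and UniGene sequences of the Sscrofa 9.2 assembly, and deposited raw counts per reference ID. SAMtools is named in the submitters' processing notes. Each table held 21785 lines for 21755 IDs, since 10 IDs were listed 4 times, and these were used once. The counts were not normalized.

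Of the IDs, 6692 were given a symbol, 6654 by a RefSeq table (Sscrofa11.1) and the others by the study's list of IDs. Counts were tested with edgeR 4.0.16 (R 4.3.3; TMM, quasi-likelihood) for IDs with at least 10 counts summed, with Benjamini-Hochberg adjustment over all IDs of a fit. High and low androstenone were fitted within a tissue, and tissues in 1 fit of 4 groups. DESeq2 1.42.0, other scalings, filters, a replicate block and leaving out each library were alternatives. Permutation tests used log2(CPM + 0.5). The fits were tested on simulated data. No 2 libraries of a group were alike: at least 71.0% of IDs differed in count. Libraries of a group came from separate boars. The members, the gene lists and the tests were chosen with earlier results of these data known. The genes named from a list were the 2 with the largest rise and the 2 with the largest fall among those called, or, where none was called, the 2 with the highest mean. In liver, the genes named one by one from the lists were chosen after their values were seen. 1 gene among those most like FOS in liver is not reported here.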

Additional observations from a re-analysis of the deposited data

Results flagged for a closer look

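In 10 of the 24 groups of 5 libraries (6 IDs in 4 groups), 1 library lay far from the other 4, with a gap to the nearest that was over 0.71 of the whole range. For values with a normal spread, chance would flag about 1 in 20 groups. That rate does not carry over to these CPM, which were not logged. The groups are not independent, since 1 library can be far from the others at several IDs. The liver flags of CDKN1A and BTG3 are at IDs chosen from the liver contrast, so they describe that choice. High replicate 3 of liver was such a library at CDKN1A (272 CPM, the others of its group at 11.0 to 48.5), at the BTG3 IDs (691 and 693 CPM, the others at 56.5 to 121 and 67.1 to 168) and at MYC (22.1 CPM, the others at 10.8 to 14.0). By library totals alone MYC did not stand apart there, with 11.4 CPM in high replicate 3 and 11.3 CPM in high replicate 1. Low replicate 5 of liver was one at CDKN1A (54.2 CPM, the others at 12.6 to 19.6), at the first BTG3 ID (109.7 CPM, the others at 25.0 to 42.5) and at FOS (52.5 CPM, the others at 2.66 to 12.2). Low replicate 1 of liver was one at JUN (159 CPM, the others at 21.2 to 39.6). In testis, low replicate 2 stood apart at the first BTG3 ID (35.3 CPM, the others at 15.6 to 20.3) and high replicate 3 at FOS (15.6 CPM, the others at 3.30 to 6.81). Whether the androstenone contrast differs between the tissues was not tested, since the liver contrast served to choose members.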

How the results depend on the processing

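The number of IDs called in testis was 0 with edgeR and 119 with DESeq2, and between 0 and 2 when 1 library was left out, with 2 calls without low replicate 5. In liver it was 0 with edgeR, 7 with DESeq2 and 0 whichever library was left out. In testis, where no ID of the members was called under any alternative, the sign of small values turned without 1 library. Leaving out each library in turn gave -0.065 to 0.38 for JUN, -0.32 to 0.030 and -0.26 to 0.076 for the BTG3 IDs (NM_001097517.1 and XM_003132741.1) and -0.38 to 0.10 for MYC. JUN turned without low replicate 1 or 3, BTG3 without low replicate 2, and MYC without low replicate 2 or 4 or high replicate 2, 4 or 5. In liver FOS ranged from -0.99 without high replicate 3 to 1.10 without low replicate 5. It turned from -0.30 to 0.39 without low replicate 5 and high replicate 3 and to 0.49 with a replicate block. Library totals only and the fit without both livers were chosen after seeing the data. FOS lost its tissue call in the fits named in the report, in the fit of high androstenone boars alone (-0.84, adjusted p by edgeR = 0.149) and without both of these livers (-0.33, adjusted p by edgeR = 0.384). The causes were not tested. With a replicate block, edgeR called 0 IDs in testis (2025 at an unadjusted p under 0.05), 0 in liver (311) and 14324 between tissues, against 14436 without it, and all 6 members kept their tissue call. Same-numbered libraries of high and low androstenone correlated at -0.048 to 0.185 in testis and at -0.352 to 0.483 in liver, and 1 of 5 correlated best with its own number in each. Same-numbered testis and liver correlated at -0.037 to 0.139 (median 0.118) in low and at -0.055 to 0.438 (median 0.231) in high androstenone boars, and 2 of 5 correlated best with their own number in each. This is a hint from the data, and since not every pair was over 0.1 the numbers were not taken to pair libraries. MYC had too few counts in testis for the stricter filter of 1 CPM in 5 libraries. The depth limits MYC most, with 2 counts in the shallowest testis.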
